A study of Mus musculus with 12 samples.

Results

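Hsf1 and 9 genes of cytosolic heat shock chaperones were followed in mouse acute myeloid leukaemia cells in which Riok2 was targeted. The 10 members were the rows of the authors' deposited table whose gene symbol was Hsf1, Hsp90aa1, Hsp90ab1, Hspa8, Hspa1b, Hspa4, Hsph1, Dnaja1, Dnajb1 or Hspb1, 10 of 24221 rows. Of these, 9 had an adjusted p-value in the authors' deposited table, and Hspb1 was listed at 0. The cells were of the C57BL/6 strain, carried the MLL-AF9 fusion oncogene and the genotype Riok2fl/fl in all samples compared here, and received hydroxytamoxifen (OHT) or ethanol (EtOH), its vehicle, for 72 h, with 3 samples in each group. Another 3 samples with DMSO and 3 with the inhibitor RIOK2i at 1 µM belong to the 12 samples and 4 groups of the study and are not analysed here. The labels name neither the Cre recombinase nor the way the leukaemia lines were made, and no group of cells with unfloxed Riok2 alleles given OHT is among the labels, so effects of OHT and of the loss of Riok2 cannot be told apart. Nor do they state whether each replicate was a culture of its own. The p-values thus cover only the spread among these samples, and that spread may be technical. RNA was sequenced from whole cell pellets. In such bulk samples, fewer cells of a type and less RNA per cell cannot be told apart.

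Heat shock chaperones bind unfolded or partly folded proteins and help them fold, and much of their cytosolic set is controlled by the transcription factor HSF1. In resting cells chaperones hold HSF1 inactive. When unfolded proteins accumulate, HSF1 forms trimers, binds heat shock elements in promoters and raises chaperone transcription. HSP70 proteins take up clients with the help of J-domain proteins, which stimulate the ATPase, and of nucleotide exchange factors such as the HSP110 proteins. HSP90 takes over clients close to their native fold, among them kinases and steroid receptors, and works with its own co-chaperones. Leukaemia cells commonly hold high levels of HSP90 and HSP70, and HSP90 stabilises many oncogenic kinases.

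In OHT, 4 of the 9 tested members were lower and 0 were higher. Those that fell were the HSP90 genes Hsp90ab1 and Hsp90aa1, the HSP110 gene Hspa4 and, close to the threshold, Hsf1. Hsp90ab1 in OHT stood at 38.9% of its EtOH level and Hsp90aa1 at 51.0%, as computed from the folds in the authors' deposited table. The threshold was the authors' adjusted p-value under 0.05 (DESeq2 with Benjamini-Hochberg adjustment). At that threshold 23.4% of the 13814 genes tested were lower in OHT, 25.5% were higher and 48.9% had changed in either direction. The 4 falls made up 44.4% of the 9 tested members. All 9 tested members had negative folds in the authors' deposited table, with a median log2 fold change of -0.40, against a median of 0.05 over all genes tested.

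**Figure D1:**
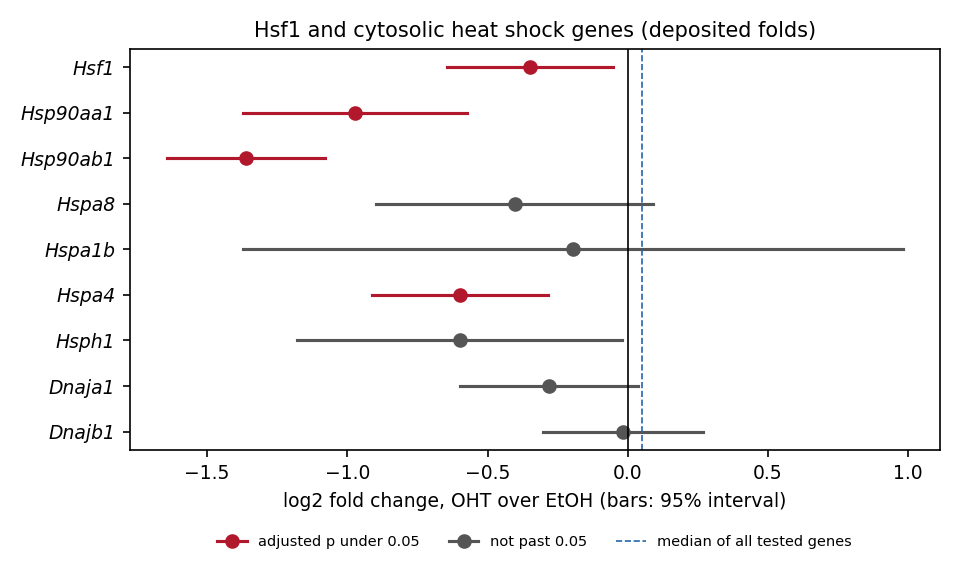
Log2 fold change of OHT over EtOH for Hsf1 and each tested chaperone gene, as points with 95% intervals from the authors' standard errors, red where the adjusted p-value was under 0.05. Each of the 9 points lies left of 0, and the intervals of Hspa8, Hspa1b, Dnaja1 and Dnajb1 cross 0; the dashed line is the median of all tested genes, 0.05.

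Riok2, the targeted gene, stood in the authors' deposited table at -3.60 ± 0.20 on the log2 scale (SE, DESeq2 adjusted p = 7.81e-69) with a base mean of 712. The base mean is the mean of normalised reads over the 6 libraries. The table does not name the numerator of its folds, so each fold is read as OHT over EtOH from the sign of this gene. The cells matched their label by markers: all 8 myeloid markers were tested, with base means of 1648 to 52333 in the authors' deposited table. Of 7 T and B cell markers, 5 were listed at 0 and the 7 summed to a base mean of 1.73. Of 6 erythroid and megakaryocyte markers 2, the globins, were at 0 and the 6 summed to 1171, most of it Itga2b (1053), while 6 stromal, endothelial and epithelial markers, none at 0, summed to 1666, most of it Pecam1 (1579), in the authors' deposited table. Of the marker genes tested, 0 of 4 erythroid and megakaryocyte genes and 1 of 4 stromal genes passed the threshold, against 48.9% of all tested genes. The myeloid markers moved in both directions: 3 rose, Itgam by 2.44 ± 0.12, Ptprc by 1.10 ± 0.12 and Spi1 by 0.71 ± 0.13, and 4 fell, with Mpo at -2.37 ± 0.23 and Elane at -1.60 ± 0.17 (log2, SE, authors' deposited table). Whether that change in myeloid state has a part in the chaperone values was not tested. Because the table holds 1 value per comparison, no value per sample can be shown for most members. For genes with few reads the reads of each library were recovered, as given with Hspa1b.

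The members covered a wide range of levels. On a per-length scale (base mean per kb of exons), Hsp90ab1 was highest at 20922, Hspa8 followed at 8651, Hsp90aa1 at 2939 and Hspa4 at 1589. The next 4 were Dnajb1 at 330, Hsph1 at 271, Hsf1 at 262 and Dnaja1 at 194 per kb, and Hspa1b stood far below at 3.79. Placed among the tested genes by level per kb, Hsp90ab1 was above 99.7% of them, Hspa8 above 99.0%, Hsf1 above 61.0% and Hspa1b above 11.5%. The spread over samples behind each level is not in the table, so neighbours in this order, such as Hsph1 and Hsf1, were not tested against each other. The level of each group can be back-calculated from the base mean and the fold, if the fold is taken as the ratio of the group means. That gives Hsp90ab1 about 75918 normalised reads in EtOH and 29531 in OHT.

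**Figure D2:**
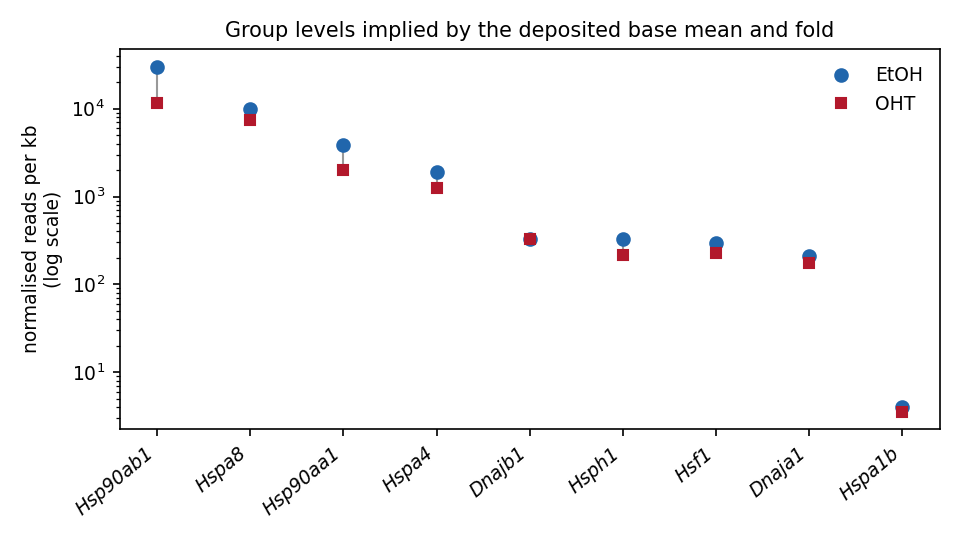
Group levels of the 9 detected members in normalised reads per kb of exons on a log scale, EtOH as circles and OHT as squares, back-calculated from the base mean and fold and not measured per group. Hsp90ab1 and Hspa8 are the highest genes and Hspa1b the lowest, and the Hsp90ab1 pair is the farthest apart (30126 and 11719 per kb).

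Hsf1 itself was modestly lower. It encodes the regulator (ENSMUSG00000022556.11, GRCm38 chromosome 15, 76477422 to 76501913, plus strand, protein coding). Its base mean was 591 and its log2 fold change -0.35 ± 0.15 (SE, DESeq2 adjusted p = 0.0441) in the authors' deposited table. This puts OHT at 78.5% of EtOH with a 95% interval of 63.9 to 96.4%. The call was lost at an adjusted p threshold of 0.01, with a fold minimum of 0.5 on the log2 scale, and after adjustment over every gene with a p-value, where it was 0.0558. Hsf1 shared 0% of its 50-base words with transcripts of other genes.

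No other heat shock factor gene passed the threshold downwards. Of 8 genes for heat shock factors and their binding proteins, 4 were tested, 0 fell and 1 rose (25%). Over all tested genes 23.4% were lower and 25.5% higher. The median log2 fold change was 0.42 over the 4. The gene that rose was Hsf4, a factor best known from the lens, with 1.12 ± 0.50 (SE, DESeq2 adjusted p = 0.0492) at a base mean of only 22.3 in the authors' deposited table; it missed the threshold once folds were centred on the median of all tested genes. Hsf2, which can form trimers with HSF1, had -0.17 ± 0.21 in the authors' deposited table, and Hsbp1, whose product binds HSF1 trimers, had 0.06 ± 0.13; neither passed. Its relative Hsbp1l1 did not pass at 0.78 ± 0.65 in the authors' deposited table. Hsf5 and Hsf2bp had base means of 0.704 and 1.37 and no adjusted p-value, and Hsf3 and Hsfy2 were listed at 0.

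Of 12 genes for kinases, a deacetylase and cofactors that act on HSF1, all tested, 4 fell (33.3%) and 3 rose (25%), with a median of -0.04. Over all tested genes 23.4% were lower and 25.5% higher, so the share that rose was near the background. At an adjusted p threshold of 0.01, 2 of the 12 fell and 3 rose, against 2640 lower and 2855 higher of all 13814 tested genes. There the share that fell was not above that of all tested genes. The falls were Eef1a1, the translation elongation factor eEF1A1, at -1.10 ± 0.16, the kinase Mapk8 at -0.82 ± 0.12, the mitotic kinase Plk1 at -0.52 ± 0.20 and the deacetylase Sirt1 at -0.30 ± 0.13 (log2, SE, authors' deposited table). In the authors' deposited table Sirt1 had an adjusted p of 0.04999 by DESeq2, just inside the threshold. Ep300, an acetyltransferase of HSF1, rose by 0.94 ± 0.18, Camk2g by 0.71 ± 0.14 and Gsk3b by 0.71 ± 0.13 in the authors' deposited table. Plk1, Sirt1 and Gsk3b were named here after their values were seen, as were Dnajb6, Hspb2 and Hspb3 in what follows. The same holds for Ptges3, Cacybp, Ahsa1, Stip1, Chordc1, St13 and Mrpl18, all of which fell. Eef1a1 was also the gene of the highest base mean among the 12 regulators, at 129808.

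Both cytosolic HSP90 genes fell. Hsp90ab1 encodes the constitutive HSP90 beta (ENSMUSG00000023944.14, GRCm38 chromosome 17, 45567775 to 45573271, minus strand) and had a log2 fold change of -1.36 ± 0.14 (SE, DESeq2 adjusted p = 1.17e-19) at a base mean of 52725 in the authors' deposited table. Hsp90aa1 encodes the stress-inducible HSP90 alpha (ENSMUSG00000021270.13, GRCm38 chromosome 12, 110690605 to 110702728, minus strand) and had -0.97 ± 0.20 (SE, DESeq2 adjusted p = 9.44e-06) at a base mean of 9936 in the authors' deposited table. As shares of EtOH, the 95% intervals were 32.0 to 47.3% for Hsp90ab1 and 38.7 to 67.3% for Hsp90aa1, and they overlap. The folds differed by 0.39 on the log2 scale, a difference that was not tested because the table does not give how the estimates vary together. Per kb, Hsp90ab1 was 7.12 times the level of Hsp90aa1. Of the 50-base words of Hsp90aa1 transcripts, 47.5% also occurred in other genes, most of them in the annotated gene Gm12346, so reads could be split between these; for Hsp90ab1 the share was 3.44%.

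Most HSP90 co-chaperone genes fell with them. Of 20, all tested, 13 fell (65%) and 2 rose (10%), with a median log2 fold change of -0.49. Over all tested genes 23.4% were lower and 25.5% higher. The largest falls were Fkbp4, the immunophilin FKBP52 of steroid receptor complexes, at -1.68 ± 0.11 (SE, DESeq2 adjusted p = 7.5e-50), and the cyclophilin Ppid at -1.13 ± 0.17 in the authors' deposited table. Cdc37, which delivers kinases to HSP90 and had the highest base mean of the list (5219), fell by 0.53 on the log2 scale (SE 0.11) in the authors' deposited table. Unc45a, a myosin chaperone, had the larger rise at 0.50 ± 0.16 in the authors' deposited table.

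The cytosolic HSP70 genes did not pass the threshold. Hspa8 encodes HSC70, the constitutive HSP70 (ENSMUSG00000015656.17, GRCm38 chromosome 9, 40800984 to 40810087, plus strand), and had -0.40 ± 0.25 (SE, DESeq2 adjusted p = 0.180) at a base mean of 20710 in the authors' deposited table. That is 75.6% of EtOH, with a 95% interval of 53.7 to 106%. Its error was wide for so abundant a gene: the median SE in the authors' deposited table was 0.18 over the 9888 tested genes whose base mean reached 100. Hspa8 shared 39.4% of its 50-base words with other genes, most with the annotated gene Gm15459.

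Hspa1b encodes stress-inducible HSP70 (ENSMUSG00000090877.3, GRCm38 chromosome 17, 34956436 to 34959238, minus strand), a gene of a single exon with a near-identical copy next to it, Hspa1a (34969190 to 34972156 on the same strand). Its log2 fold change was -0.20 ± 0.60 (SE, DESeq2 adjusted p = 0.812) at a base mean of 10.6 in the authors' deposited table. The 95% interval, 38.6 to 197% of EtOH, is too wide to show a change at this depth. Per kb, Hspa8 was 2280 times the level of Hspa1b. Both genes share words with other genes, so this ratio depends on how shared reads were counted, which is not known. The fold of Hspa1a was 1.36 ± 0.72 on the log2 scale (SE, DESeq2 adjusted p = 0.105) at a base mean of 5.36 in the authors' deposited table, so it did not pass the threshold.

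For Hspa1b and Hspa1a the whole reads behind the base mean were recovered for each of the 6 libraries, with 1 solution for each gene. Which library belongs to which sample name cannot be told. Values are therefore given by the side of the comparison on which they lie, the side where the authors' fold is above 0 being read as OHT. Hspa1b had 11.7, 9.88 and 7.17 normalised reads in the libraries of that side and 7.20, 13.8 and 14.0 in those of the other. The sides overlap. Hspa1a had 6.93, 7.90 and 11.5 normalised reads on the side read as OHT and 0.90, 1.15 and 3.83 on the other, from 13, 8 and 8 reads and from 1, 1 and 3 reads. For Hspa1a the sides do not overlap, but the lower side rests on 1, 1 and 3 reads, and the gene did not pass the authors' test. How often the sides of other genes do not overlap was not computed, so no change is read from this. Summed over both genes, the values were 18.7, 17.8 and 18.6 on the side read as OHT and 8.10, 14.9 and 17.9 on the other, so the highest value of the other side came between the values of the first. The copies shared 1716 of their 50-base words, 62.3% of those of Hspa1b, and a read from a shared stretch cannot be placed in one of them. Neither copy's value is certain for this reason.

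**Figure D3:**
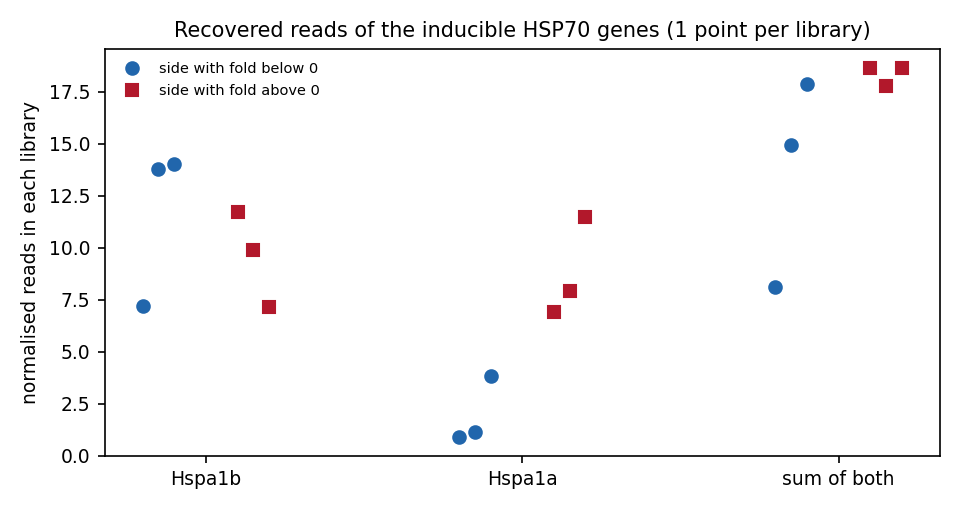
Normalised reads of Hspa1b, Hspa1a and their sum in each of the 6 libraries, recovered from the base means; squares are libraries on the side where the authors' fold is above 0 (read as OHT), circles those on the other side. Hspa1b overlaps between sides, and Hspa1a lies between 6.93 and 11.5 on one side and between 0.90 and 3.83 on the other.

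The other cytosolic HSP70 and HSP110 genes showed no common direction. Of 7, including Hspa1a, 1 fell (14.3%) and 1 rose (14.3%), with a median of 0.06, against 23.4% lower and 25.5% higher over all tested genes. With 7 genes no difference from those shares was tested. Hspa14, a ribosome-associated HSP70, fell by 0.54 on the log2 scale (SE 0.12, DESeq2 adjusted p = 1.99e-05), and Hspa12a, a distant HSP70 relative, rose by 1.85 ± 0.62 at a base mean of 10.2 in the authors' deposited table. Hspa1l had -0.06 ± 0.38, Hspa2 0.06 ± 0.23, Hspa4l 0.12 ± 0.13 and Hspa12b -0.11 ± 0.60 in the authors' deposited table, and none of these passed.

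The HSP110 proteins Hspa4 and Hsph1 release ADP from HSP70. Hspa4 (ENSMUSG00000020361.13, GRCm38 chromosome 11, 53259814 to 53300457, minus strand) had a log2 fold change of -0.60 ± 0.16 (SE, DESeq2 adjusted p = 0.000677) at a base mean of 7338 in the authors' deposited table. Hsph1 (ENSMUSG00000029657.15, GRCm38 chromosome 5, 149614287 to 149636376, minus strand) had the same fold to 2 decimals, -0.60 ± 0.30, at a base mean of 1144, and did not pass (DESeq2 adjusted p = 0.0817) in the authors' deposited table. Its p before adjustment was 0.0428 in the authors' deposited table (DESeq2). Hspa4 stood at 66.1% of EtOH (95% interval 53.1 to 82.2%) and Hsph1 at 66.0% (44.2 to 98.7%), so the calls differ through the error and not through the size of the fold. Hspa4 was 5.87 times as high as Hsph1 per kb. Both shared 0% of their 50-base words with other genes.

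Of the J-domain members, neither passed. Dnaja1 (ENSMUSG00000028410.13, GRCm38 chromosome 4, 40722150 to 40737149, plus strand) had -0.28 ± 0.16 (SE, DESeq2 adjusted p = 0.145) at a base mean of 1118 in the authors' deposited table, or 82.4% of EtOH (95% interval 66.1 to 103%). It shared 20.6% of its 50-base words with other genes. Dnajb1, which encodes HSP40, the partner of HSP70 in heat shock recovery (ENSMUSG00000005483.10, GRCm38 chromosome 8, 83608193 to 83612653, plus strand), had -0.02 ± 0.15 (SE, DESeq2 adjusted p = 0.931) at a base mean of 1057 in the authors' deposited table. Its interval, 81.1 to 120% of EtOH, does not reach the fitted value of either HSP90 gene.

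Of 22 other cytosolic or nuclear J-domain genes, 19 were tested, 8 fell (42.1%) and 5 rose (26.3%), with a median of -0.31. The share that rose was near the 25.5% of all tested genes, and 23.4% of those were lower. Dnajc2, a ribosome-associated J-domain protein, had the largest fall at -0.96 ± 0.18, and the clathrin uncoating factor Dnajc6 had -0.93 ± 0.40 (SE) in the authors' deposited table. Dnaja2, of the highest base mean (5728), fell by 0.47 on the log2 scale (SE 0.17) in the authors' deposited table. The largest rises were Dnajb5 at 1.20 ± 0.30 and Dnajb13 at 1.04 ± 0.33 in the authors' deposited table. At an adjusted p threshold of 0.01, 3 of the 19 fell and 4 rose, against 2640 lower and 2855 higher of all 13814 tested genes. There the share that fell was no longer above that of all tested genes.

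Of 12 HSP70 co-chaperone genes, 7 fell (58.3%) and 1 rose (8.33%), with a median of -0.42, against 23.4% lower and 25.5% higher over all tested genes. The falls were led by Bag2, an inhibitor of the ubiquitin ligase CHIP, at -1.74 ± 0.21 (SE, DESeq2 adjusted p = 7.3e-15), and Hikeshi, the nuclear import carrier of HSP70, listed under its older name l7Rn6, at -0.86 ± 0.21 in the authors' deposited table. Bag1, an exchange factor with the highest base mean of these (4052), fell by 0.39 on the log2 scale (SE 0.15) in the authors' deposited table. Bag3, an exchange factor of selective autophagy, was the one that rose, by 0.65 ± 0.22 (SE, DESeq2 adjusted p = 0.00943) in the authors' deposited table.

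Hspb1 encodes HSP25, a small heat shock protein that holds unfolded proteins without using ATP (ENSMUSG00000004951.10, GRCm38 chromosome 5, 135887919 to 135889563, plus strand). It was listed at a base mean of 0, so no read was counted in the 6 libraries, and it has no fold. A count of 0 allows up to 3 reads, which in the smallest library would be a base mean of 0.717, a limit that covers counting error only. Of its 50-base words, 50.1% occur in other genes, nearly all in the annotated gene Hsp25-ps1, and a read from such a stretch cannot be placed in one of them. Most other small heat shock protein genes were also near 0. Of 9, 3 were tested, 0 passed at the authors' adjusted p (DESeq2) and 0 had an unadjusted p under 0.05. Over all tested genes 48.9% passed the threshold. The most abundant, Hspb6, had -0.46 ± 0.27 at a base mean of 142 in the authors' deposited table, while Hspb2 and Hspb3 were listed at 0.

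Genes known to be induced by heat shock through HSF1, other than the members, numbered 22, of which 19 were tested. Of these, 11 fell (57.9%) and 2 rose (10.5%), with a median of -0.63, against 23.4% lower and 25.5% higher over all tested genes. Most of the falls were already counted in the co-chaperone lists: Fkbp4, Ppid, Ptges3, Cacybp, Ahsa1, Stip1, Chordc1 and St13. Only Hspd1, Hspe1 and Mrpl18 were not, so this share largely repeats the co-chaperone result. Fkbp4 had the largest fall and Bag3, also a co-chaperone gene, the largest rise. The other large fall was Hspe1, the mitochondrial chaperonin HSP10, at -1.49 ± 0.23 in the authors' deposited table. Hspd1, the chaperonin HSP60, which had the highest base mean of the list (8140), fell by 1.47 on the log2 scale (SE 0.24) in the authors' deposited table. Hspd1 and Hspe1 lie head to head on GRCm38 chromosome 1, and their annotated spans overlap by 112 bases, so reads there cannot be assigned without strand.

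Among the HSP90, HSP70 and HSP110 paralogs of the endoplasmic reticulum and mitochondria, 2 of 6 fell (33.3%, against 23.4% of all tested genes) and 0 rose, with a median of -0.46. Those that fell were Hspa9, mortalin of mitochondria, at -1.53 ± 0.21 (SE, DESeq2 adjusted p = 9.21e-12) and Trap1, the mitochondrial HSP90, at -1.08 ± 0.13 (DESeq2 adjusted p = 1.25e-15) in the authors' deposited table. None of the remaining 4 passed. In the authors' deposited table Hspa5, BiP, had -0.49 ± 0.25, Hsp90b1, GRP94, had -0.15 ± 0.22, Hyou1 had -0.34 ± 0.21 and Hspa13, a microsomal HSP70, had -0.43 ± 0.20. A difference between the compartments was not tested.

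**Figure D4:**
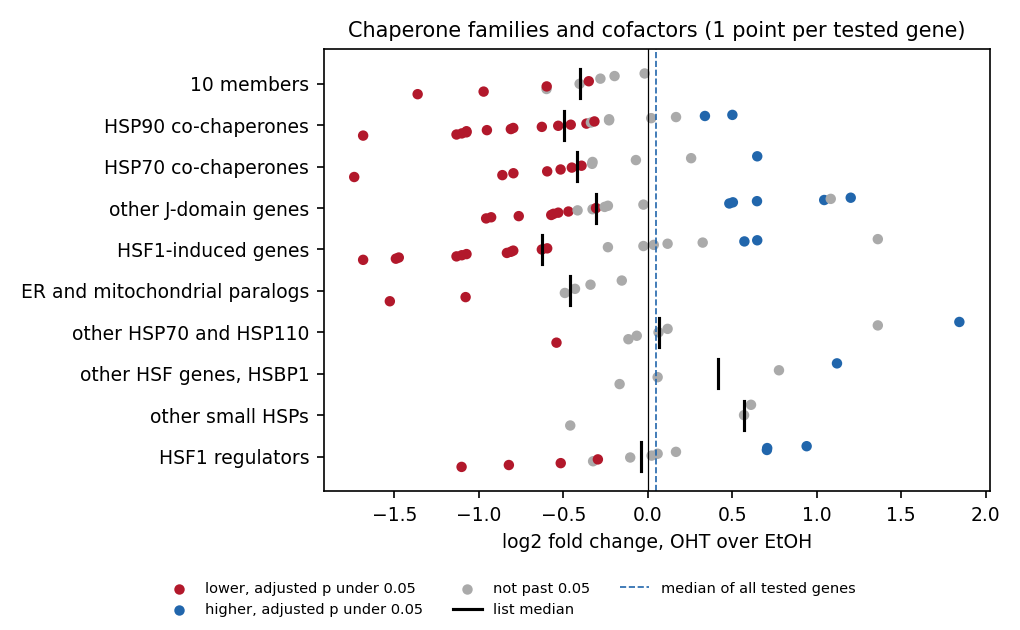
Log2 fold change of OHT over EtOH for each tested gene of the members and 9 related lists, 1 point per gene, red for lower and blue for higher at adjusted p under 0.05, with the median of each list as a bar and the median of all tested genes dashed. The HSP90 co-chaperones (13 lower, 2 higher of 20) and HSF1-induced genes (11 lower, 2 higher of 19) lie mostly left of 0, and the other J-domain genes (8 lower, 5 higher of 19) lie on both sides. Most HSF1-induced genes that fell are also points in the co-chaperone lists.

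The upstream sequences were searched for heat shock elements, the form of sequence that HSF1 binds. The matches are by letters only, and whether HSF1 binds them was not tested. A heat shock element is a run of inverted units, GAA and its complement TTC in turn with any 2 bases between units. The RefSeq promoter table on GRCm38.p6 held 6 of the 10 members, Hspa1b, Hspa4, Hsph1, Dnaja1, Dnajb1 and Hspb1. Only the 250 bases upstream of each start were searched, on both strands, for 3 such units starting from either unit. An exact run of 3 units was in 0 of the 6 members. A run with 1 of its 9 unit letters differing, a form added after seeing the data, was in 4: Hspa1b, Hsph1, Dnaja1 and Hspb1. A form of 2 exact units was in the same 4. Over all 32851 promoters of the table the shares were 0.466% for 3 exact units, 6.08% with 1 letter differing and 12.8% for 2 exact units. These shares are per promoter, while a gene was counted if any of its promoters held the form. Genes with several promoters thus had more chances, and the counts and shares are not on the same scale. Hspa4 and Dnajb1 held none of these forms, which says only that these letters are not in these windows. The stretches that hold the elements follow, 5′ to 3′ on the strand of the gene, with the matching unit letters of the looser 3-unit form and of 2 exact units in capitals and a differing unit letter in lower case. Hspa1a is shown because its stretch is that of Hspa1b letter for letter, and Hspe1 because it holds exact units.

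Hspa1b: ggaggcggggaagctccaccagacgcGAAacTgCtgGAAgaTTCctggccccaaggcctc
Hspa1a: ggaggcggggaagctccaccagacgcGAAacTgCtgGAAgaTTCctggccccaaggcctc
Hspb1: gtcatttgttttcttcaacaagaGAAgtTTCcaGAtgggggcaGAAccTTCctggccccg
Hsph1: agaatctTTCtcGAAggcTCgaGAAgaagg
Dnaja1: aaaaaagccTCtaGAAaaTTCtacgaggct
Hspe1: acggtccgTTCtaGAAccTTCcgGAAggcc

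On GRCm38.p6 these lie at chr17:34959319-34959378 (minus, Hspa1b), chr17:34972237-34972296 (minus, Hspa1a), chr5:135887779-135887838 (plus, Hspb1), chr5:149636347-149636376 (minus, Hsph1), chr4:40722331-40722360 (plus, Dnaja1) and chr1:55088051-55088080 (plus, Hspe1). The Hsph1 stretch is in the windows searched upstream of both RefSeq starts of its gene and the Dnaja1 stretch in that of 1 of 3, and both lie inside the GENCODE span of the gene. Upstream of their starts, Hspa1b and Hspa1a were the same in 247 of the bases compared, 98.8%. The 2 genes share the element shown. In Hspe1 the exact units, TTC, GAA, TTC and GAA, span 18 bases, chr1:55088059-55088076. On the other strand, the same bases are in the window searched upstream of 1 of 2 RefSeq starts of Hspd1, and inside its GENCODE span. Of the 4 members with the looser form, 0 passed the threshold, while 23.4% of all tested genes were lower and 25.5% higher. Hspa1b had -0.20, Hsph1 -0.60 and Dnaja1 -0.28 on the log2 scale in the authors' deposited table. Hspb1, listed at 0, was not tested. Of the members that fell, Hsf1, Hsp90aa1 and Hsp90ab1 had no promoter entry, so only Hspa4 was searched. Whether members with elements differ from those without therefore cannot be read from these counts. Among the HSF1-induced genes, 18 had an entry, 3 held 3 exact units (Hspd1, Hspe1 and Dnajb6) and 7 held the looser form. Of those with exact units Hspd1 and Hspe1 fell, while Dnajb6 had -0.24 ± 0.15 and did not pass in the authors' deposited table. With so few genes no relation between elements and folds was tested.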

How the data were processed

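Total RNA of mouse MLL-AF9 leukaemia cells was sequenced from TruSeq libraries (per the labels' protocols). The submitters' processing notes name DESeq2, DESeq, HTSeq 0.9.1, STAR 2.7.2b and Trimmomatic 0.38.0, with build mm10, another name of the GRCm38 assembly. Annotation, strand setting and counting options: not given in the sources used here. For every gene, the table that the authors deposited gives a base mean, a signal equal to its normalised reads averaged across libraries, and its log2 fold change and standard error. It also gives the Wald score that the authors deposited with its p-value, before and after adjustment. A check of the values found each score equal to fold over error, and the adjustment to be Benjamini-Hochberg over 13814 genes. The largest standard error was 0.747, and a gene with 1 read (Cryaa) had a fold of 0.08 with an error of 0.48, so folds are taken to be pulled towards 0, which understates changes of low genes. Base means summed to about 20307700 normalised reads. The table has 0 columns of per-sample values, so no test of samples was made here.

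Members, lists and markers were chosen with earlier results of these data known. Named genes were all members, Riok2, and for each list the gene of highest base mean, the 2 largest rises and falls past the threshold, and every gene of a list of 8 or fewer; some genes that this rule names are not reported here. The 95% intervals are the fold ± 1.96 SE. Lengths and positions came from GENCODE M21 (exon union of basic protein-coding transcripts). Reads per library came from base means as whole multiples of 6 steps, each 1 read in 1 library. Each of the 4645 genes up to a base mean of 5 (0 left out) was solved in 1 way (in a first pass, before the steps were refined, 2672 of 2685), as were Hspa1a and Hspa1b above that range, while Hspa12a had 4 solutions and is not given. This gave the size factors 1.88, 1.01 and 0.697 on the side where the fold is above 0 and 1.11, 0.870 and 0.783 on the other. The method was also tested on simulated data. Shared sequence was the share of 50-base words of a gene's transcripts found in other genes' transcripts. Promoters came from RefSeq (GRCm38.p6). Python 3.11.15, pandas 2.3.3, numpy 2.4.6, scipy 1.17.1 and matplotlib 3.10.9 were used. Alternatives were a threshold of 0.01, a fold minimum of 0.5, adjustment over every gene with a p-value, a base mean minimum of 100, centred folds, leaving out Hspa1b and, chosen after seeing the data, unadjusted p-values, leaving out members with over 20% shared words, and 1 differing letter in an element. The DMSO and RIOK2i samples are not analysed here.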

Additional observations from a re-analysis of the deposited data

How the results depend on the processing

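No paired analysis was possible because the deposited table holds 1 comparison and no values per sample, and no replicate could be left out for the same reason. The members' lower count, 4, was 3 at a threshold of 0.01 or with a fold minimum of 0.5. It was also 3 after adjustment over every gene with a p-value, and Hsf1 was the gene lost in each. It was 4 with a base mean minimum or centred folds, and 5 unadjusted (Hsph1 gained). In each setting 0 members were higher. Over all 13814 tested genes the lower count, 3231, was 2640 at 0.01 and 2679 with the fold minimum. It was 3129 after adjustment over every gene with a p-value, 3025 of 9888 with the base mean minimum, 3487 centred and 3531 unadjusted. The higher count over all tested genes, 3521, ran from 2855 to 3856. The median log2 fold change, -0.40, was -0.45 centred, -0.50 without Hspa1b and -0.60 over the 5 tested members sharing at most 20% of their words, a limit chosen after seeing the data that leaves out Dnaja1 at 20.6%. At 0.01 the lower counts went from 8 to 3 for J-domain genes and from 4 to 2 for HSF1 regulators. Over all tested genes they went from 3231 to 2640. Hsf4's rise, 1 call among heat shock factors, was lost at 0.01 and with centred folds. Depth limits Hspa1b, Hspa1a and Hspb1.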
